A study of Mus musculus with 8 samples.

Results

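Txnip and the genes that respond with it to glucose were followed in cultured mouse liver cells given the drug metformin. The set held 7 genes, chosen by name: Txnip, Arrdc3, Arrdc4, Mlxipl, Pklr, Khk and Gpd1. Of the 16304 probes in the table, 8 carried the annotation of 6 of these genes, with 2 probes each for Pklr and Khk and 1 each for Txnip, Arrdc4, Mlxipl and Gpd1. The transcript level of Arrdc3 was not analysed here. The cells were primary hepatocytes of male C57Bl6/J mice, freed from the liver with collagenase. Wells labelled as control, with no further treatment named, were set against wells given 500 µM metformin, and both are titled as 24 h, with 4 wells in each group and 1 Illumina bead array per well. The labels name no genetic change, and do not say whether the wells came from separate animals or isolations, so a p-value here reflects the spread among these wells alone, and that spread may be technical.

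Mlxipl encodes ChREBP, a transcription factor that is switched on by metabolites of glucose and binds DNA together with its partner Mlx at carbohydrate response elements. In the liver it drives genes of sugar breakdown and lipid synthesis, among them Pklr, the liver form of pyruvate kinase. Txnip is among the most glucose-responsive genes known. Its protein is an alpha-arrestin that binds thioredoxin and promotes the removal of glucose transporters from the cell surface, and Arrdc4 is a close relative that is also induced by glucose.

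Promoters of 3 members are shown to show which of them hold the letters of a carbohydrate response element in the window searched. Each line holds the 250 bases before an annotated start of the gene, 5′ to 3′ on the strand of the gene, from RefSeq on GRCm38.p6. The regions are chr3:96557707-96557956 (plus strand) for Txnip, chr3:89136373-89136622 (plus strand) for the downstream start of Pklr and chr7:68749239-68749488 (minus strand) for Arrdc4. Capitals mark matches on either strand to the pattern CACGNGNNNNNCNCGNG, an E-box-like pair spaced as in a carbohydrate response element, or to the E-box CACGTG.
Txnip: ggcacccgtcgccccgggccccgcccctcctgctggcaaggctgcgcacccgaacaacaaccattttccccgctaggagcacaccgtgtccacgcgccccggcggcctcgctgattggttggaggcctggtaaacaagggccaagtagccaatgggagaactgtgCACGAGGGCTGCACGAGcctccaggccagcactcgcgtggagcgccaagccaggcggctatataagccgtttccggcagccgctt
Pklr: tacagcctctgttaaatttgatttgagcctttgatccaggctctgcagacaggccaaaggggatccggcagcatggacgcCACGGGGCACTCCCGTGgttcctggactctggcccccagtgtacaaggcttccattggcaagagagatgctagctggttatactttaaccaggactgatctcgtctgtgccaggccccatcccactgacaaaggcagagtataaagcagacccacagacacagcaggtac
Arrdc4: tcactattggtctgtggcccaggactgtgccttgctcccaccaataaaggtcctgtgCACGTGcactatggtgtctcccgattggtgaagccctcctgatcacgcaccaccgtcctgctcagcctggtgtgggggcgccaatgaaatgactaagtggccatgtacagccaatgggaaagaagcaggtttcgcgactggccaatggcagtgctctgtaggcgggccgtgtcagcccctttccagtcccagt
The paired pattern was written to take in the elements known for Txnip and Pklr, so their matches are no finding. It lay 85 to 69 bases before the start of Txnip and 170 to 154 bases before that of Pklr, and did not overlap an E-box in either. It stood in 2 of the 10 promoter entries that RefSeq gave for 6 members, and in 0.28% of all 32851 promoters of this length. These members included Arrdc3, with 3 entries and no match, and left out Gpd1, which had no entry among the promoters searched. A single E-box stood in the window of Arrdc4, starting 193 bases before that start, in that of Khk, starting 71 bases before it, and in the upstream window of Mlxipl, starting 98 bases before it, against 6.02% of all promoters. No match says only that these letters are not in the window.

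Control and metformin wells were compared to find how the transcripts of hepatocytes respond to the drug. Txnip had the largest change of the 8 probes, a level 2.42-fold lower with the drug, and Arrdc4 had a level 1.54-fold higher. Pklr and Khk had somewhat higher levels at both of their probes, and Mlxipl and Gpd1 lower levels. In limma's linear model across all probes, 0 of the 8 probes passed an adjusted p under 0.05 (Benjamini-Hochberg, two-sided), where 5.64% of all probes passed. An unadjusted p under 0.05 was found for 4 of the 8, against 23% of all probes. The 4 metformin arrays lay on 1 side of the 4 control arrays for 0 of the 8, against 14.6% of all probes. Deviations of wells with the same replicate number were weakly correlated (0.131 to 0.268, against up to 0.126 for other numbers). The labels give the number no meaning. On these correlations alone, each value was also fitted with the number as a block. With the block 1 of the 8 probes, that of Txnip, passed, where 6.78% of all probes did and 3.34% did so as lower. The adjusted p of limma with the block was 0.0596 at the dimmer Khk probe and 0.0619 at the dimmer Pklr probe. It was 0.0879 for Arrdc4, 0.09 for Gpd1, 0.28 for Mlxipl, and 0.225 and 0.248 at the brighter probes of Pklr and Khk. In bulk RNA of whole wells, fewer cells of a type and less RNA per cell cannot be told apart.

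**Figure D1:**
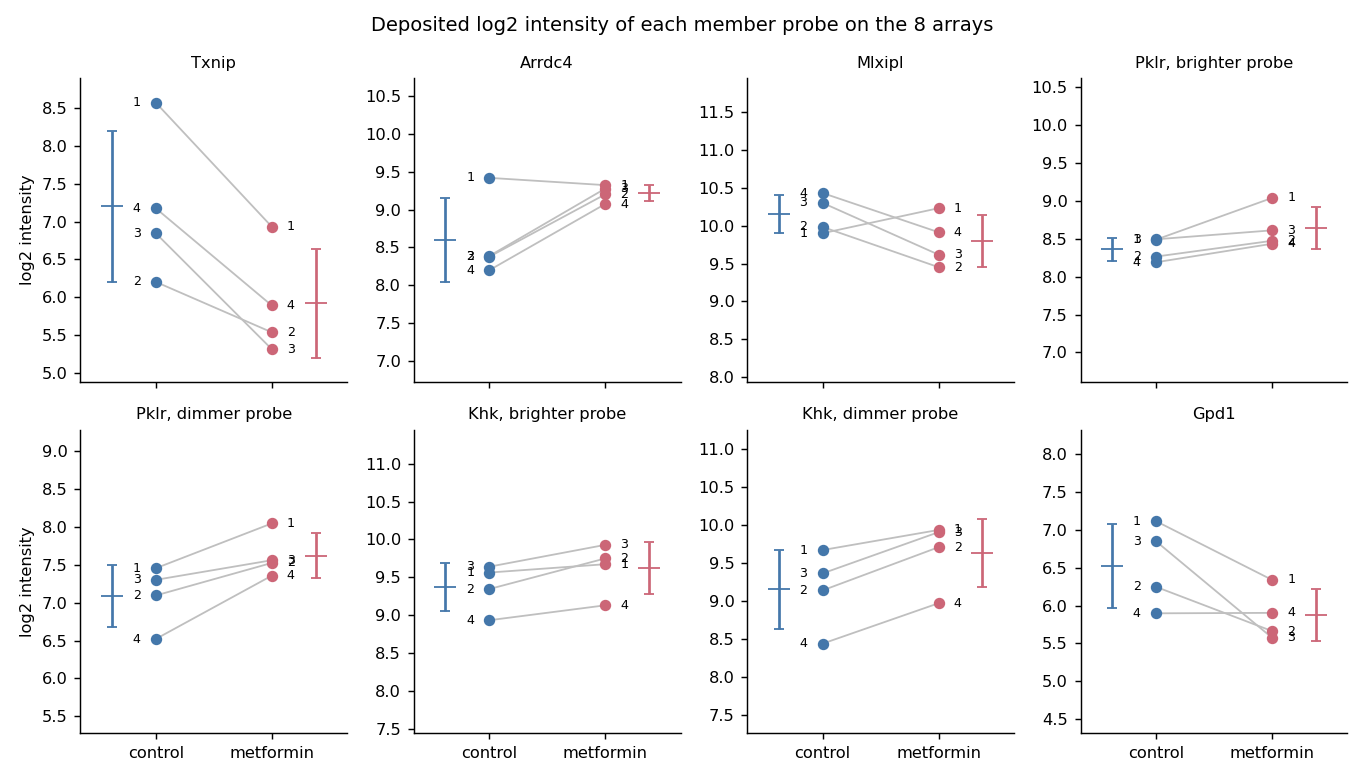
Log2 intensity of the 8 probes in control (blue) and metformin (red) wells, 1 point per array, with grey lines joining equal replicate numbers and bars for the mean ± SD of 4 arrays. Every panel spans the same number of log2 units. All 4 lines fall for Txnip, from 8.57, 6.20, 6.85 and 7.18 to 6.93, 5.54, 5.32 and 5.89.

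Txnip (probe ILMN_3112873) had log2 intensities of 8.57, 6.20, 6.85 and 7.18 in control replicates 1 to 4. With metformin they were 6.93, 5.54, 5.32 and 5.89. Replicates 2, 3 and 4 of metformin lay below every control well, while metformin replicate 1 lay above control replicates 2 and 3, so that the groups overlapped. The mean went from 7.20 ± 1.0 to 5.92 ± 0.72 log2 units (SD, n = 4), a difference of -1.28 ± 0.49 (SE, 95% confidence interval -2.37 to -0.19; limma adjusted p = 0.154). Only 85 of the 16304 probes had a more negative change. The spread of Txnip between wells of 1 group was also wide, with a residual SD of 0.87 log2 units that lay at the 99.6th percentile of all probes.

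The wells of Txnip also differed by replicate number. Replicate 1 was the highest well for Txnip in both groups. Within equal numbers the metformin well was lower in 4 of 4 pairs, by -1.64, -0.66, -1.53 and -1.28 log2 units for numbers 1 to 4. Being lower in all 4 pairs was seen for 15.4% of all probes. With the number as a block the difference of -1.28 had an SE of 0.18 (interval -1.69 to -0.86) and an adjusted p of 0.0147 in limma. The blocked call was lost without pair 2 (adjusted p = 0.0640) or pair 3 (0.0899), and held without pair 1 (0.0327) or pair 4 (0.0460). Of all 16304 probes, that fit passed 0 as higher and 0 as lower without pair 2, and 2 and 6 without pair 3. It passed 562 and 541 without pair 1, and 177 and 191 without pair 4. The change of Txnip was -1.48 ± 0.15 (SE) without pair 2 and -1.19 ± 0.22 without pair 3. Without the block, Txnip passed in 0 of the 8 fits that left out 1 array, with changes from -1.62 to -0.82. The change was -0.82 without control replicate 1, the highest of the control wells for Txnip.

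Arrdc4 (probe ILMN_2648967), the other alpha-arrestin measured from the set, went the other way. Its log2 intensities were 9.42, 8.38, 8.39 and 8.20 in control replicates 1 to 4 and 9.32, 9.20, 9.28 and 9.07 with metformin. The metformin wells lay within a narrow band above control replicates 2, 3 and 4, and below control replicate 1. The mean went from 8.60 ± 0.56 to 9.22 ± 0.11 (SD, n = 4), a difference of 0.62 ± 0.24 (SE, interval 0.084 to 1.16; limma adjusted p = 0.159). The pair differences were -0.095, 0.82, 0.89 and 0.87, higher in 3 of 4 pairs. Without the block, Arrdc4 did not pass with all 8 arrays. It passed without control replicate 1, its highest control well, where the difference was 0.90 ± 0.12 (SE, limma adjusted p = 0.0112). In that fit 521 of all 16304 probes passed as higher and 565 as lower. The adjusted p of Arrdc4 was 0.196 to 0.311 in the other 7 fits without 1 array.

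**Figure D2:**
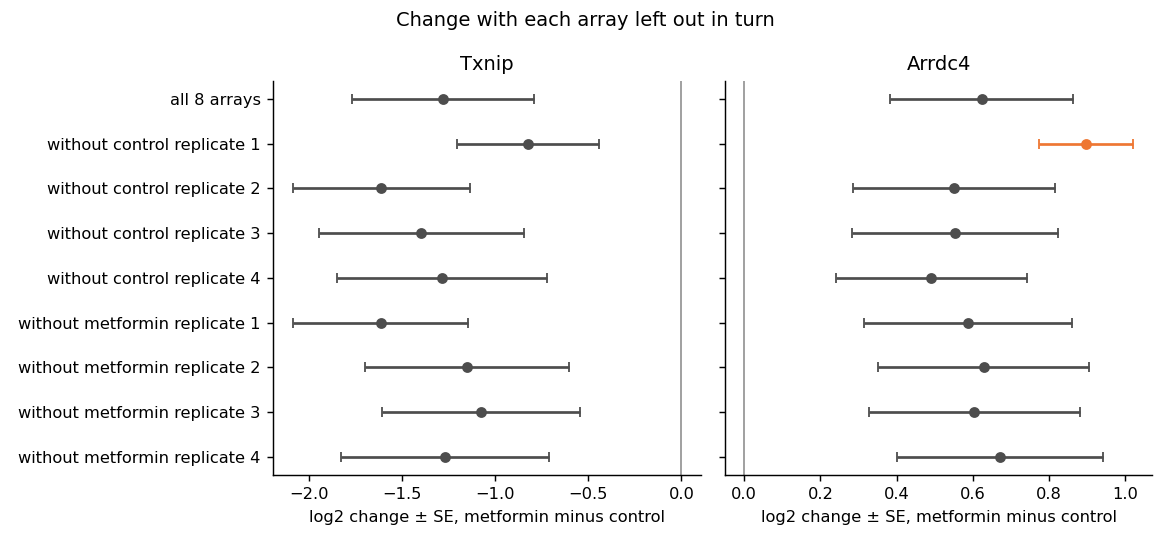
Log2 change ± SE of Txnip (left) and Arrdc4 (right) with all 8 arrays and with each array left out, where orange marks an adjusted p under 0.05. Txnip stays between -1.62 and -0.82 and Arrdc4 between 0.49 and 0.90, and the only orange point is Arrdc4 without control replicate 1.

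Mlxipl (probe ILMN_2992232), the gene of ChREBP itself, had log2 intensities of 9.90, 9.98, 10.30 and 10.43 in the control wells and 10.23, 9.45, 9.62 and 9.91 in the metformin wells. The metformin wells 2 and 3 lay below all controls, and metformin well 1 above control wells 1 and 2. The difference was -0.35 ± 0.19 (SE, n = 4 per group; interval -0.78 to 0.079; limma adjusted p = 0.315). Without metformin replicate 2 it was -0.23. It was positive in pair 1 (0.33) and negative in the other three (-0.53, -0.68 and -0.51).

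Pklr, whose enzyme makes pyruvate in the last step of glycolysis, was read by a pair of probes annotated to the same transcript. The brighter one (ILMN_2704285) gave 8.49, 8.26, 8.49 and 8.19 in controls and 9.04, 8.47, 8.61 and 8.43 with metformin. The dimmer one (ILMN_2944041) gave 7.45, 7.09, 7.30 and 6.52 in controls and 8.04, 7.52, 7.56 and 7.36 with metformin. At the dimmer probe 3 metformin wells exceeded every control, and at the brighter one 2 did. The differences were 0.28 ± 0.16 (SE, interval -0.072 to 0.63) at the brighter and 0.53 ± 0.22 (interval 0.038 to 1.02) at the dimmer probe, with limma adjusted p of 0.328 and 0.188. Without metformin replicate 1 the brighter probe gave 0.15, and without control replicate 4 the dimmer one 0.34. Both probes were higher in 4 of 4 pairs, a pattern that 17.2% of all probes had.

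Khk encodes ketohexokinase, which phosphorylates fructose in the first step of its breakdown. Its brighter probe (ILMN_2698564) gave 9.56, 9.35, 9.64 and 8.94 in controls and 9.67, 9.75, 9.93 and 9.13 with metformin. The dimmer one (ILMN_2725617) gave 9.67, 9.14, 9.36 and 8.44 in controls and 9.94, 9.71, 9.91 and 8.97 with metformin. Replicate 4 was the lowest well of its group at both probes, and the other three metformin wells exceeded every control. The differences were 0.25 ± 0.21 (SE, interval -0.21 to 0.71; limma adjusted p = 0.516) and 0.48 ± 0.29 (interval -0.16 to 1.1; adjusted p = 0.360). Without control replicate 4 they were 0.10 and 0.24. The brighter probe gave 0.15 without metformin replicate 3 and 0.41 without metformin replicate 4. As for Pklr, all 4 pairs were higher at both probes, by 0.11 to 0.40 at the brighter and 0.27 to 0.57 at the dimmer.

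Gpd1 (probe ILMN_2808811) encodes the cytosolic glycerol phosphate dehydrogenase, which links glycolysis to the backbone of triglycerides. Its log2 intensities were 7.11, 6.25, 6.85 and 5.90 in controls and 6.34, 5.66, 5.58 and 5.90 with metformin. Metformin wells 2 and 3 lay below all controls, and wells 4 of the 2 groups were level. The difference was -0.66 ± 0.27 (SE, n = 4 per group; interval -1.26 to -0.049; limma adjusted p = 0.186). Pairs 1, 2 and 3 were lower by -0.77, -0.58 and -1.27, and pair 4 differed by 0.0059.

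**Figure D3:**
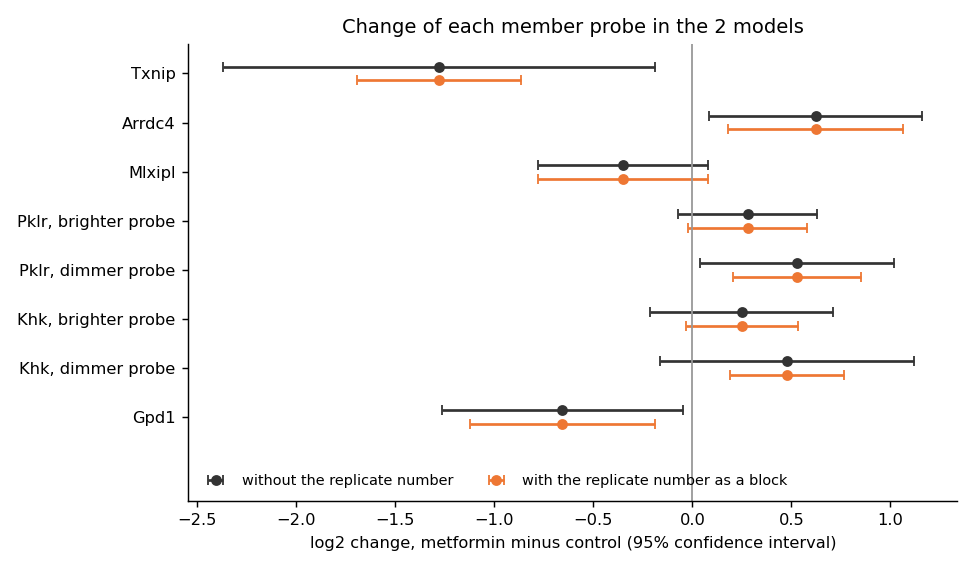
Log2 change of each probe, metformin minus control, with its 95% confidence interval from the model without the replicate number (black) and with it as a block (orange). The interval of Txnip narrows from -2.37 to -0.19 without the block to -1.69 to -0.86 with it.

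The level of the 8 member probes differed by array, while every array had a median of 6.48 log2 units over all probes. Control replicate 1 was the highest control well for 5 of the 8 probes, and metformin replicate 1 the highest metformin well for 7. These counts take Pklr and Khk at both of their probes, and the share over all probes was not counted. Averaged over the 8 probes, replicate 1 stood 0.47 log2 units above its group mean in the control and 0.40 in the metformin group. The other wells stood between -0.33 and 0.091. The direction of the drug difference was not shared, being positive at 5 probes and negative at 3.

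The genes whose profile over the 8 arrays was most like that of Txnip were sought among 10943 others, each by its brightest probe. Likeness was the root mean square difference of log2 values centred on each gene's own mean, which had a median of 1.02 over these genes. The 5 closest were Etfbkmt (0.263), a mitochondrial methyltransferase gene, Bicc1 (0.291), which encodes an RNA-binding protein, Lrg1 (0.399), a secreted glycoprotein of the acute phase, H1f10 (0.452), a linker histone, and Akr1c19 (0.459), an aldo-keto reductase. Etfbkmt had 8.11, 6.56, 6.79 and 7.44 in controls and 7.18, 5.64, 5.67 and 5.79 with metformin, so that replicate 1 was the highest well in both groups, as for Txnip. Their changes were -1.16 for Etfbkmt, -1.19 for Bicc1, -1.02 for Lrg1, -0.87 for H1f10 and -0.50 for Akr1c19. These genes were picked on the same 8 arrays and drug difference, so their changes are a description with no test. Within the set, Gpd1 was nearest to Txnip, at 0.627, and Arrdc4 was at 1.10.

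**Figure D4:**
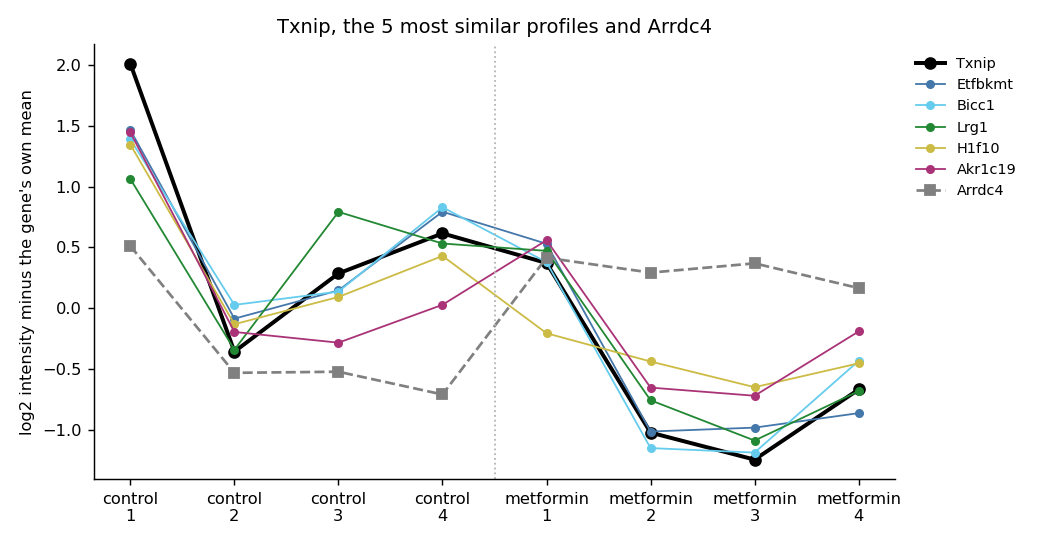
Log2 intensity minus each gene's own mean on the 8 arrays, for Txnip (black), the 5 genes with the most similar profile (colours) and Arrdc4 (dashed grey). The 5 profiles lie within a root mean square difference of 0.263 to 0.459 of Txnip, while Arrdc4 is at 1.10. Arrdc4 is high in all 4 metformin wells and highest in control replicate 1.

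Around the set stood 6 lists of 61 genes, of which 45 were measured. None of the 45 passed in limma without the block (0 higher, 0 lower), where 5.94% of the 10944 genes did by their brightest probe. An unadjusted p under 0.05 was found for 7 of them, against 23.5% of all genes. Without control replicate 1 the threshold was passed by 3 of the 45 (Arrdc2, G6pc and Taldo1). Of all 16304 probes, 521 passed as higher and 565 as lower in that fit. Without control replicate 4 it was passed by 1 (Tkfc), against 193 probes higher and 187 lower. Leaving out metformin replicate 1 gave 1 (Prdx2), against 437 and 472. Array weights gave 2 (Mxd4 and Taldo1), against 802 and 862, and another variance prior 1 (Taldo1), against 577 and 603. For the thioredoxin list without metformin replicate 4, 1 tally gave 1 gene and another 0, so no gene is named there. The median change of the 45 was -0.044 log2 units, beside 0.010 for all genes. With the replicate block 2 were higher and 0 lower, where 7.11% of all genes passed, 3.69% of all as higher.

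Among 10 measured ChREBP targets of lipid synthesis, 5 had positive and 5 negative changes (median 0.016). The desaturase gene Scd1 had 11.84, 12.26, 12.40 and 11.61 in controls and 12.45, 13.31, 13.18 and 12.35 with metformin, higher in every pair although the groups overlapped. Its difference of 0.80 ± 0.26 (SE) had a limma adjusted p of 0.10, and 0.0188 with the replicate block, a call that held without pair 1 (0.0314) and was lost without pair 2, 3 or 4 (0.0856, 0.108 and 0.0546). Dgat2, which makes triglycerides, differed by 0.45 ± 0.21 (adjusted p = 0.240). Among 8 measured targets of sugar metabolism and signalling, 2 had positive and 6 negative changes (median -0.30). Taldo1, transaldolase of the pentose phosphate pathway, had 12.38, 12.02, 12.01 and 11.64 in controls and 12.88, 12.51, 12.53 and 12.45 with metformin, all above the controls. Its difference of 0.58 ± 0.17 had a limma adjusted p of 0.0767, and 0.0383 with the replicate block, a call lost without any 1 of the 4 pairs (0.0580 to 0.152). Over all probes the blocked fit passed 0 as higher and 0 as lower without pair 2, and 2 and 6 without pair 3. Tkfc, the triokinase that follows Khk in fructose breakdown, differed by -0.67 ± 0.26 (adjusted p = 0.159), the opposite sign to Khk.

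Mlx, with which ChREBP binds DNA, differed by -0.20 ± 0.18 at its brighter probe and 0.092 at the other, and Mlxip, the related sugar sensor, by 0.093 ± 0.12 at a dim probe (mean 4.35 in controls). Mxd4, a repressor of the same network, differed by -0.66 ± 0.20 (limma adjusted p = 0.0839). The 5 measured genes of that list had a median of -0.045. In the thioredoxin list, with 8 measured members and a median of -0.020, Txn1, the thioredoxin that Txnip binds, differed by -0.58 ± 0.19 (adjusted p = 0.106) and Prdx2, a peroxiredoxin, by -0.37 ± 0.19, with probes from -0.52 to 0.037.

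Of the other alpha-arrestins, Arrdc2 differed by 0.47 ± 0.15 (limma adjusted p = 0.0945), the same sign as Arrdc4, and Arrdc1 by -0.27 ± 0.13 (adjusted p = 0.252), both at dim probes. With 4 ubiquitin ligases they gave a median of -0.12. Among 8 measured enzymes and transporters next to Pklr, Khk and Gpd1 (median 0.21), Pkm, the other pyruvate kinase gene, differed by -0.50 ± 0.18 (adjusted p = 0.132), and Aldoc, an aldolase, by 0.61 ± 0.32 (adjusted p = 0.293).

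**Figure D5:**
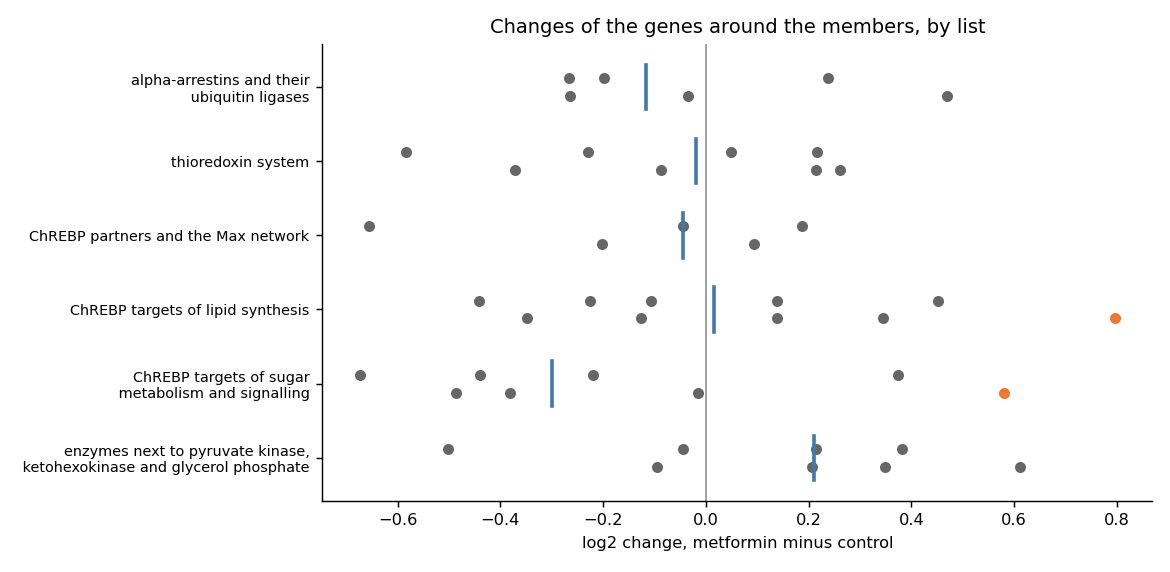
Log2 change of each measured gene of the 6 lists, metformin minus control, by its brightest probe, with a blue bar at the list's median. Orange points are past an adjusted p of 0.05 with the replicate block, and they are Scd1 at 0.80, a call lost without pair 2, 3 or 4, and Taldo1 at 0.58, a call lost without any 1 pair. Without pair 2 the blocked fit passed 0 of all probes as higher and 0 as lower.

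Markers were checked against the labelled cell type. Of 9 measured hepatocyte markers, Ttr, Apoa1, Apoa2 and Serpina1c had control means of 12.24 to 13.98, and Hnf4a, Cyp2e1 and Ass1 of 10.07 to 10.93. The brightest probe of Cps1 was dim at 6.45, and that of Alb at 5.65, on a scale that starts near 4.16. The summed linear intensity of the hepatocyte markers was 38800 to 47700 in control and 44200 to 51900 in metformin wells. The sums were 449 to 1130 against 432 to 1860 for 6 sinusoidal endothelial markers, 143 to 637 against 138 to 507 for 3 Kupffer markers, 2300 to 4240 against 2390 to 4690 for 5 stellate markers, 366 to 693 against 515 to 1060 for 3 cholangiocyte markers and 38.9 to 61.3 against 39.9 to 44.6 for 2 lymphocyte markers. Group ranges overlapped for all 6 lists, though these ranges do not pair wells by replicate number. Changes were positive for all 3 cholangiocyte markers (median 0.91) and all 6 endothelial markers (median 0.25). Positive and negative changes numbered 6 and 3 for hepatocyte, 4 and 1 for stellate, 1 and 2 for Kupffer and 0 and 2 for lymphocyte markers. Of all 10944 genes, 5606 had a positive change. In limma 0 of the 28 markers passed, where 5.94% of all genes did. With the replicate block 2 of the 28 passed, a share of 7.14% near the 7.11% of all genes. These were the endothelial Lyve1 (1.28, adjusted p = 0.0450) and the cholangiocyte Krt19 (0.91, adjusted p = 0.0205), and both calls were lost without pair 2, 3 or 4. Over all probes the blocked fit passed 0 as higher and 0 as lower without pair 2, and 2 and 6 without pair 3. The part of these markers in the values above was not tested.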

How the data were processed

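Total RNA of 8 wells (TRIzol, biotin label, per the labels' protocols) was read on Illumina mouse bead arrays. The authors deposited log2 intensities, 1 column per array, with 16304 probes and 0 missing values. The tools limma 3.26.9 and R 3.2.3 are listed, without a role, per the submitters' processing notes. Background correction, normalization and probe filter are not given in the sources used here. Array medians were 6.48 log2 units, and the values were used as deposited. Detection p-values were not used, so the distance of dim probes from background is unknown. Precision is limited by the number of arrays.

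Probes were named from the platform annotation (15301 with 1 symbol, 0 with several, 1003 with none) and updated by Entrez number through RefSeq for GRCm38.p6, which held 15294. Every probe was fitted with limma 3.58.1 (lmFit, eBayes) in R 4.3.3 and adjusted over all probes. List genes were counted by their brightest probe. Members and lists were chosen with earlier results of these data known. The genes named were all member probes, from each list those past the threshold or else the 2 with the smallest p, Mlx and Mlxip, and the 5 profiles most like Txnip, besides the markers. Same-numbered wells correlated in their deviations from group means over all probes (0.268, 0.249, 0.131 and 0.201 for numbers 1 to 4). The highest correlation of each control well with a metformin well of another number was 0.0511, 0.126, 0.0801 and -0.0379. The lowest same-number value was thus close to the highest of the others. The numbers were taken as pairs from the data alone, as the labels give the number no meaning. Alternatives were the block, single probes or means per gene, a filter on dim probes, quantile normalization, an offset, array weights, another variance prior and each array left out.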

Additional observations from a re-analysis of the deposited data

Results flagged for a closer look

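In 16 groups of 4 wells, 1 for each member probe and treatment, 1 well stood apart by its gap to the next well relative to the group's range. This was control replicate 1 for Arrdc4, at 9.42 log2 units against 8.20 to 8.39 in the other control wells, a gap of 0.846 of the range where 0.829 is the limit. Chance gives such a gap in about 1 of 20 groups.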

How the results depend on the processing

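The sign of every member probe held under each of the 16 other settings chosen at the start that gave it a value; the dimmer probes of Pklr and Khk have none where a gene has 1 value. Sizes moved by over 1.5 times without 1 array for Txnip, Mlxipl, Pklr and Khk, as given with each gene. Calls differed for 2 probes. With the replicate block Txnip passed at -1.28 (adjusted p = 0.0147), and the block changed no other member's call. In the blocked fits that left out 1 pair, added after seeing the data, Txnip passed without pair 1 (-1.16) and pair 4 (-1.28), and Arrdc4 without pair 1 (0.86). With each array left out Arrdc4 ranged from 0.49 to 0.90, passing only without control replicate 1. The adjusted p over these 16 settings was 0.0147 to 0.339 for Txnip and 0.0112 to 0.311 for Arrdc4. Over all probes 443 were higher and 477 lower, against 562 and 544 with the block and 802 and 862 with array weights. Leaving out 1 array gave 69 to 521 higher and 107 to 565 lower; the counts were 159 and 165 without control replicate 2, 134 and 148 without 3, 193 and 187 without 4, 82 and 107 without metformin replicate 2, and 69 and 114 without 3. The blocked fit gave 0 and 0 in limma without pair 2 (3058 at an unadjusted p under 0.05), 2 and 6 without pair 3, and 177 and 191 without pair 4, each on 6 arrays. The cause was not tested.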
